A study of Mus musculus with 10 samples.

Results

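The 10 genes described here encode ISG15, the enzymes that attach it to proteins and remove it, and antiviral effectors induced mainly by type I interferon. They are Isg15, Uba7, Ube2l6, Usp18, Rsad2, Bst2, Ifi27l2a, Ifi44, Ifi44l and Mx1, and all 10 were found among the 22053 Ensembl identifiers of the deposited table. They are a named list, selected on their FPKM differences between the same G799R and wild-type libraries, so those differences are described here and not tested. RNA-seq was run on glomeruli, the filters of the kidney, with 5 libraries from mice carrying the missense change p.G799R in Col4a3 and 5 from Col4a3 wild-type mice. Col4a3 encodes a type IV collagen chain of the glomerular basement membrane. The labels leave out zygosity, age, sex, strain and how the glomeruli were obtained. The title of the series names the bile acid tauroursodeoxycholic acid, but these 10 libraries carry no treatment label. Whether each library is a different mouse is likewise not stated, and p-values below therefore reflect library-to-library spread that could be partly technical.

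Type I interferons bind a receptor built from the products of Ifnar1 and Ifnar2, and signalling through kinases activates a transcription factor complex that includes STAT2 and IRF9. This complex binds the interferon-stimulated response element in the promoters of its target genes. ISG15 is a small ubiquitin-like protein that is made in large amounts in the response and joined to many other proteins. UBA7 is its activating enzyme, UBE2L6 its conjugating enzyme and, in the mouse, HERC6 its main ligase. USP18 removes ISG15 from proteins and also binds IFNAR2, where it restrains the receptor.

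RefSeq promoter sequences of build GRCm38.p6, each running from 250 bases before the start site to 50 bases after it, were matched to 7 of the 10 genes. Usp18, Ifi27l2a and Mx1 were not matched. The core of the interferon-stimulated response element was searched on both strands as GAAA, any 2 bases and GAAA again, with overlapping matches counted. It was found in 3 of the 7 promoters, those of Isg15, Bst2 and Rsad2, against 3.44% of all 32851 promoters of the table. These 3 promoters are shown because they hold the element, with its letters in capitals and the rest in lower case, in the direction of transcription.
Isg15: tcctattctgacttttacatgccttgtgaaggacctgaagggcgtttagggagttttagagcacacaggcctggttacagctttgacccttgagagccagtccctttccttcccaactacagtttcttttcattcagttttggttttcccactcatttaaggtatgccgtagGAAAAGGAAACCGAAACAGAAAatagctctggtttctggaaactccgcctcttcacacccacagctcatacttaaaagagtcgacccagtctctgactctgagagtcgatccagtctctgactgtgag
Bst2: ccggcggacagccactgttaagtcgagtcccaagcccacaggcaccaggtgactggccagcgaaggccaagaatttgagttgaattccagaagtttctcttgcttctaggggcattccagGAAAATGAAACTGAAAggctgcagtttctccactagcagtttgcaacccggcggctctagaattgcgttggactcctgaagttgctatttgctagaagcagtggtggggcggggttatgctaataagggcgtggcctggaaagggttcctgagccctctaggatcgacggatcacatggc
Rsad2: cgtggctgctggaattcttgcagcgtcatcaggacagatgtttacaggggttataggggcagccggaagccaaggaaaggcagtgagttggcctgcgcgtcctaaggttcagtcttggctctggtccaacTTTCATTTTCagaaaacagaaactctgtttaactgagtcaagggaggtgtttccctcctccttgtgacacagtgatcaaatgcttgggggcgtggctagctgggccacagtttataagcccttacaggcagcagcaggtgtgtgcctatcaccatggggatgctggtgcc
The Isg15 promoter lies at chr4:156200769-156201068 on the minus strand and held 3 overlapping matches, whose first bases lie 78, 72 and 66 bases before the start site. The Bst2 promoter, at chr8:71537423-71537722 on the minus strand, held 2 overlapping matches that begin 130 and 124 bases before the start. The Rsad2 promoter, at chr12:26456403-26456702 on the minus strand, held 1 match in reverse orientation, beginning 120 bases before the start. Bst2 was the only one of the 7 promoters with a match to TTCNNNGAA, the core of the gamma-activated sequence, which 8.30% of all promoters held. The promoters of Uba7, Ube2l6, Ifi44 and Ifi44l held neither pattern in this window. A match is a run of letters and does not show binding.

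The labelled tissue was checked against defining markers. The endothelial gene Pecam1 stood at 192 to 225 FPKM (a fragment density scaled for transcript length and library total) in G799R and 82.1 to 168 FPKM in wild type. The mesangial gene Pdgfrb was present in every library. The tubule gene Umod was also present, at 50.7 to 186 FPKM in G799R and 522 to 730 FPKM in wild type, so the preparations held tubule RNA in unequal amounts. Col4a3 itself was at 213 ± 12.4 FPKM in G799R and 138 ± 13.6 FPKM in wild type (SD, n = 5 each), and since the change is missense, its mRNA level does not check the labels. The summed level of 40 tubule markers was 1597 to 3275 FPKM in G799R and 9213 to 15371 FPKM in wild type. Of the 40, 39 were called lower, beside 19.3% of all tested genes. The summed level of 58 glomerular markers was 14189 to 16418 FPKM in G799R and 7341 to 10377 FPKM in wild type. Of the 58, 49 were called higher and 1 lower, beside 40.5% and 19.3% of all tested genes. The mean log2(FPKM + 1) of these lists differed by -2.31 and 0.65, each with an exact two-sided permutation p of 0.0079, the smallest that 5 against 5 libraries allow. Since FPKM is relative, this shift touches every level below, and its part in them was not tested. In bulk samples, a different share of cells of a type and a different amount of RNA per cell cannot be told apart.

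All 10 genes stood higher in G799R glomeruli, by 5.75-fold to 70.4-fold in ratio of mean FPKM. Their median log2 difference was 2.81, on the log2(FPKM + 1) scale used for every log2 value here, beside a median of 0.17 over all 13117 tested genes. For 8 of the 10, every G799R library lay above every wild-type library, which was the case for 26.1% of all tested genes; 59.8% of all tested genes were called in either direction by limma, and nothing is read from either share here because the same contrast chose the set. Ifi44 and Mx1 overlapped, in each case because G799R library 5 fell below wild-type library 5. Ranked by log2 difference among all tested genes, the 10 genes took places between 4 (Ifi27l2a) and 70 (Uba7).

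**Figure D1:**
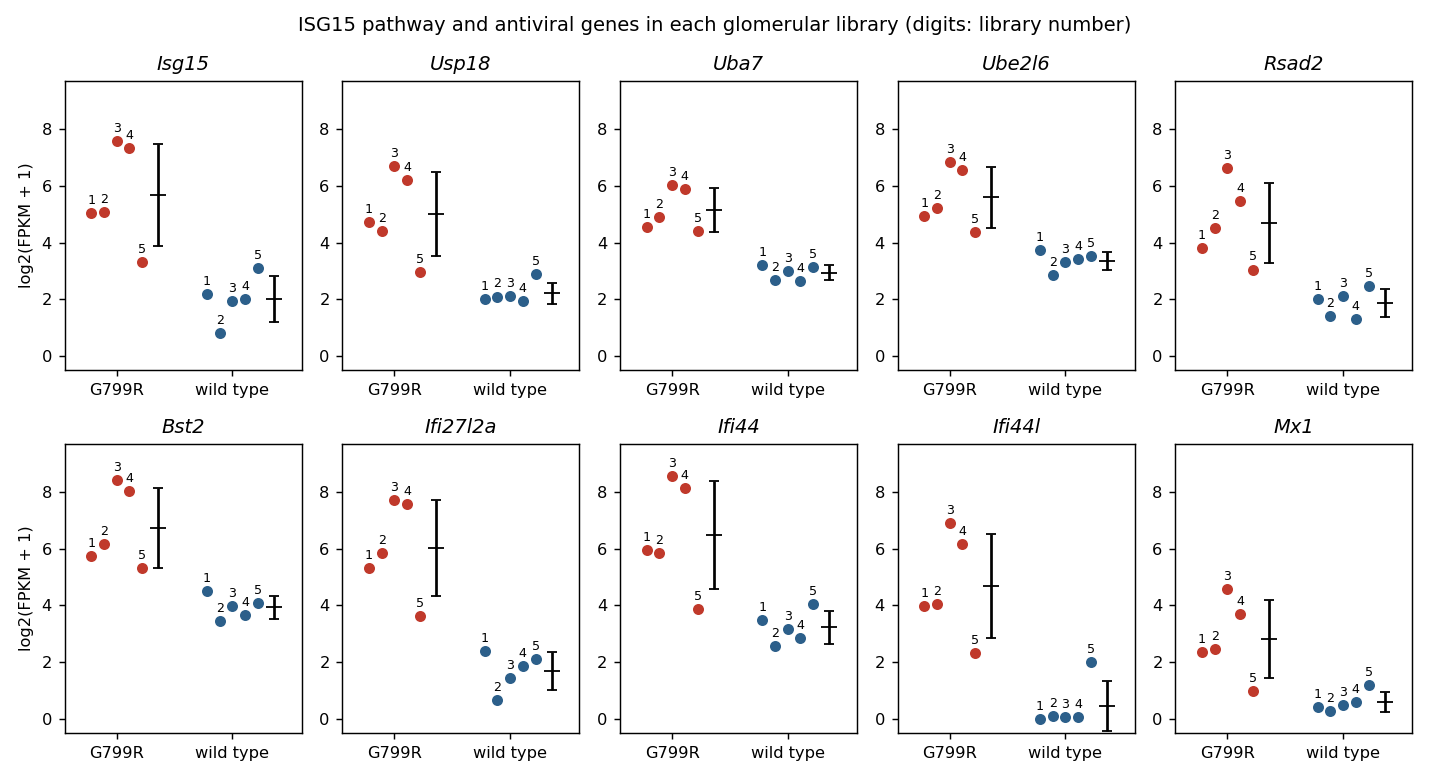
Level of each of the 10 genes, as log2(FPKM + 1), in the 5 G799R and 5 wild-type libraries. Points are libraries with their number, and bars show the mean with its SD. In every panel G799R libraries 3 and 4 are highest and library 5 is the lowest of the G799R libraries.

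The first group of genes makes up the ISG15 cycle. Isg15 itself, on chromosome 4, stood at 32.0, 32.6, 192, 162 and 8.97 FPKM in G799R libraries 1 to 5, against 3.57, 0.764, 2.81, 3.03 and 7.52 FPKM in wild-type libraries 1 to 5. The groups did not overlap, but the lowest G799R library was close to the highest wild-type library. The mean was 85.4 ± 84.6 FPKM in G799R and 3.54 ± 2.47 FPKM in wild type (SD, n = 5 each), a 24.1-fold ratio.

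Uba7, on chromosome 9, encodes the enzyme that activates ISG15. It stood at 22.6, 28.6, 65.0, 58.5 and 20.03 FPKM in the G799R libraries, against 8.32, 5.36, 6.97, 5.32 and 7.91 FPKM in wild type. Its ratio of means, 5.75-fold, was the smallest of the 10 genes, and its highest G799R library was only 3.25 times its lowest. Its exons overlap those of a predicted gene, Gm20661, which was at 0.652 FPKM or below in every library.

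Ube2l6, on chromosome 2, encodes the conjugating enzyme that carries ISG15 to its targets. Its levels were 30.0, 36.5, 114, 93.7 and 19.7 FPKM in G799R and 12.2, 6.30, 8.86, 9.66 and 10.4 FPKM in wild type. The groups did not overlap, and the ratio of means was 6.19-fold. Uba7 and Ube2l6 had the 2 smallest ratios of means of the set, and each had the other as the gene of the set with the closest profile across the 10 libraries.

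Usp18, on chromosome 6, encodes the protease that takes ISG15 off proteins. It stood at 25.8, 20.2, 104, 73.4 and 6.84 FPKM in G799R, against 3.07, 3.29, 3.31, 2.81 and 6.35 FPKM in wild type. Its mean was 46.0 ± 40.9 FPKM in G799R and 3.77 ± 1.46 FPKM in wild type (SD, n = 5 each), a 12.2-fold ratio. Wild-type library 5 stood above the other 4 and close to G799R library 5. Its exons overlap those of an antisense RNA, and the labels do not state whether counting used strand.

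The levels of these genes were also set against each other. FPKM is scaled for length, so levels can be set against that of Isg15 in the same library. Uba7 was at 0.339 to 2.23 times the level of Isg15 in G799R and at 1.05 to 7.01 times in wild type. It exceeded Isg15 in 1 of 5 G799R libraries and in 5 of 5 wild-type libraries. Ube2l6 was at 0.579 to 2.195 times the level of Isg15 in G799R, and at 1.39 to 8.24 times in wild type. Usp18 was at 0.454 to 0.805 times the level of Isg15 in G799R and 0.844 to 4.30 times in wild type, with no overlap. The ranges for Uba7 and Ube2l6 overlapped, with G799R library 5 the highest of its group for both. The ratio of means of Isg15 was larger than those of the genes for its enzymes. The ratios rest on low Isg15 values in wild type, with the highest in wild-type library 2, where Isg15 was at 0.764 FPKM.

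**Figure D2:**
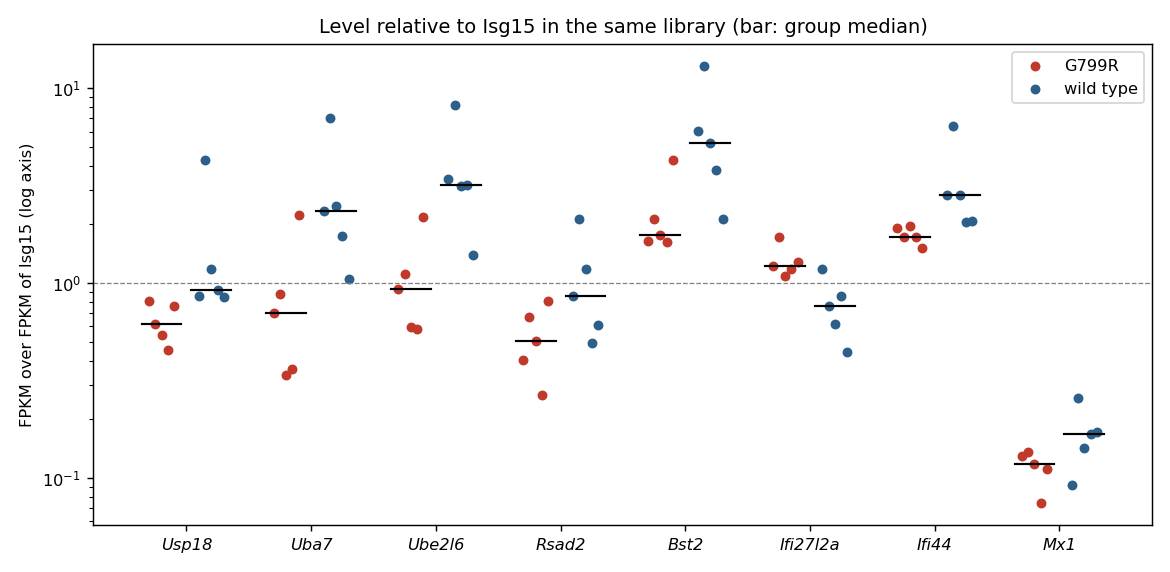
Level of 8 of the genes divided by the level of Isg15 in the same library, on a log axis, for G799R and wild type. Points are libraries and bars are group medians; Ifi44l is left out because it was listed at 0 in wild-type library 1. Uba7, Ube2l6 and Bst2 lie lower relative to Isg15 in G799R, with medians of 0.705, 0.937 and 1.76 against 2.33, 3.19 and 5.27 in wild type and overlapping ranges. Ifi44 lies at 1.51 to 1.96 in G799R and 2.06 to 6.42 in wild type, without overlap.

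The second group holds effectors with a known antiviral action. Rsad2, on chromosome 12, encodes viperin, which makes a nucleotide that ends viral RNA chains. It stood at 12.9, 21.7, 97.2, 43.3 and 7.29 FPKM in G799R and 3.07, 1.63, 3.34, 1.49 and 4.59 FPKM in wild type. The groups did not overlap, and the ratio of means was 12.9-fold.

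Bst2, on chromosome 8, encodes tetherin, a membrane protein that holds budding virus particles at the cell surface. Its levels were 52.5, 69.9, 338, 264 and 38.4 FPKM in G799R, against 21.5, 9.97, 14.8, 11.5 and 16.01 FPKM in wild type. It was the highest of the 10 genes in wild type, at 14.8 ± 4.50 FPKM (SD, n = 5), and 10.3-fold higher in G799R. Every G799R library lay above every wild-type library.

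Mx1, on chromosome 16, encodes a dynamin-like GTPase that blocks influenza virus, and many laboratory strains carry a defective allele of it. It was the lowest of the set in G799R, at 4.13, 4.44, 22.7, 12.0 and 0.992 FPKM, against 0.329, 0.197, 0.398, 0.509 and 1.29 FPKM in wild type. The ratio of means was 16.2-fold, and 4 of 5 G799R libraries lay above all wild-type libraries. The fifth, library 5, lay among them.

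The third group holds interferon-induced genes whose action is less well defined. Ifi27l2a, on chromosome 12, encodes a small hydrophobic membrane protein of the IFI27 family. It stood at 39.3, 56.6, 209.5, 190.2 and 11.5 FPKM in G799R and 4.23, 0.58, 1.73, 2.59 and 3.33 FPKM in wild type. Its ratio of means was 40.7-fold and its log2 difference 4.33, the largest of the set as deposited with a pseudocount of 1. With a pseudocount of 0.1 or 0.5, under glomerular marker scaling, or without G799R library 2, wild-type library 2 or wild-type library 5, that of Ifi44l was larger. Ifi27l2a exceeded Isg15 in 5 of 5 G799R libraries and in 1 of 5 wild-type libraries. Its close paralog Ifi27l2b was at 0.065 FPKM or below in every library. Ifi27, which lies beside it, was at 87.3 ± 13.4 FPKM in G799R and 45.4 ± 8.86 FPKM in wild type (SD, n = 5 each), a ratio of 1.92-fold.

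Ifi44 and Ifi44l are paralogs that lie next to each other on chromosome 3. Ifi44 stood at 61.1, 56.3, 375, 279 and 13.5 FPKM in G799R, against 10.1, 4.91, 7.998, 6.25 and 15.6 FPKM in wild type. It had the highest mean of the set in G799R, 157 ± 160 FPKM (SD, n = 5), yet G799R library 5 lay below wild-type library 5. Ifi44l stood at 14.7, 15.7, 119, 70.6 and 4.04 FPKM in G799R, and in wild type it was listed at 0 in library 1, at 0.078, 0.045 and 0.04 FPKM in libraries 2 to 4 and at 3.02 FPKM in library 5. The 70.4-fold ratio of its means therefore rests on wild-type library 5 for its lower term. Ifi44 exceeded Ifi44l in all 10 libraries, and reads shared between the paralogs make their single values uncertain.

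By mean FPKM, the order in G799R was Ifi44, Bst2, Ifi27l2a, Isg15, Ube2l6, Usp18, Ifi44l, Uba7, Rsad2 and Mx1. In wild type it was Bst2, Ube2l6, Ifi44, Uba7, Usp18, Isg15, Rsad2, Ifi27l2a, Ifi44l and Mx1. In both orders the ranges of every pair of neighbours overlapped. The ranges ignore that the genes share libraries, so they do not give the order within a library. Rsad2, for instance, stood above Mx1 in every G799R library. Mx1 and Rsad2 kept low places in both, while Ifi27l2a and Isg15 took higher places in G799R.

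**Figure D3:**
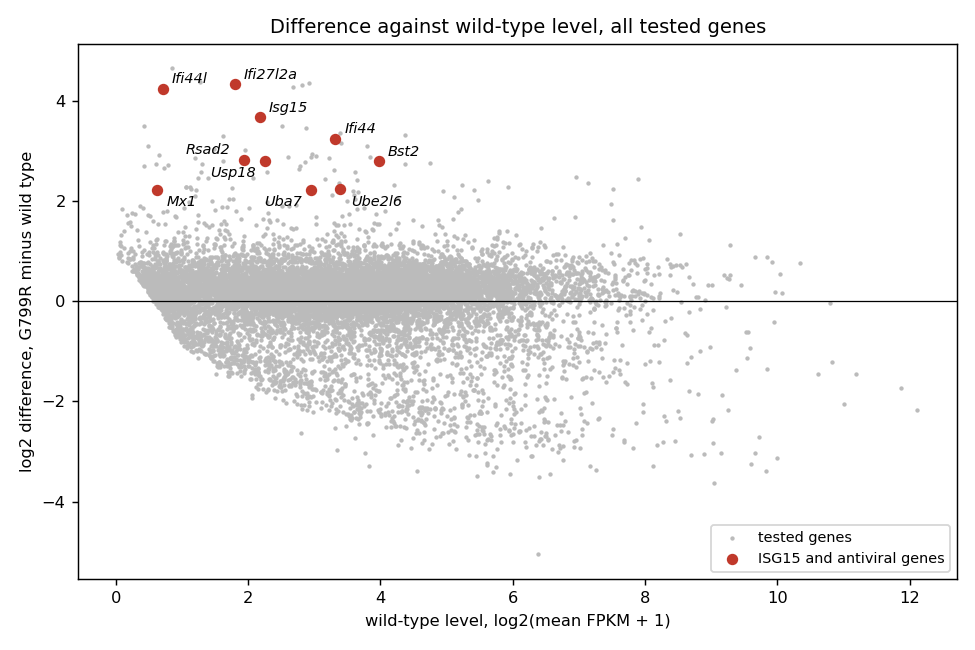
Log2 difference (G799R minus wild type) of every tested gene against its wild-type level, as log2(mean FPKM + 1), with the 10 genes in red. The 10 genes lie between 2.22 and 4.33 on the vertical axis, at low to moderate wild-type levels.

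The spread between G799R libraries was wide and ran the same way in all 10 genes. Library 3 was the highest and library 4 the next in 10 of 10 genes, and library 5 was the lowest in 10 of 10. The summed level of the 10 genes was 295, 343, 1636, 1247 and 131 FPKM in G799R libraries 1 to 5, against 66.5, 33.1, 50.3, 43.2 and 76.1 FPKM in wild-type libraries 1 to 5. They made up 0.0385% to 0.485% of all FPKM in G799R and 0.0103% to 0.0234% in wild type. The highest G799R library exceeded the lowest by 3.25 times for Uba7 and by 29.5 times for Ifi44l, with the other 8 genes in between. Over the set, the median SD of log2(FPKM + 1) was 1.45 in G799R and 0.45 in wild type, against 0.15 and 0.17 over all tested genes. In wild type, library 5 was the highest for 6 genes and library 1 for 4, and library 2 was the lowest for 6. Without G799R libraries 3 and 4 the median log2 difference of the set was 1.88.

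Library 5 of G799R was above all wild-type libraries for 8 of the 10 genes, and libraries 1 to 4 for 10 of 10. The neutrophil gene S100a9 stood at 107 FPKM in that library, against 9.59 to 24.1 FPKM in the other 4 G799R libraries and 7.66 to 22.5 FPKM in wild type. The summed level of 10 neutrophil markers was 24.7 to 212 FPKM in G799R and 17.6 to 51.6 FPKM in wild type, with library 5 again the highest. The part of these cells in the low values of library 5 was not tested.

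Other genes of the ISG15 system moved less evenly. Of 16 genes that attach ISG15, remove it, receive it or hold USP18 at the receptor, 8 were called higher and 1 lower by limma with Benjamini-Hochberg adjustment, where 40.5% of all tested genes were called higher and 19.3% lower. The median log2 difference of the 16 was 0.36. With the glomerular marker score set equal in every library, 2 were called higher and 7 lower. Of all 13156 genes tested under that scaling, 551 were called higher and 8329 lower, and their median moved to -0.41. Herc6, the ISG15 ligase of the mouse, rose to 19.4 ± 14.6 FPKM in G799R, against 3.95 ± 1.004 FPKM in wild type (SD, n = 5 each; log2 difference 1.77 ± 0.40 SE, limma adjusted p = 0.0031). Stat2, which anchors USP18 to the receptor, was 4.98-fold higher (limma adjusted p = 3.1e-04), with no overlap between the groups. Trim25, another ligase for ISG15, was 1.92-fold higher (limma adjusted p = 0.0052), but was not called under glomerular marker scaling.

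Arih1, a ligase of the ariadne family, was at 23.2 ± 1.52 FPKM in G799R and 21.5 ± 1.25 FPKM in wild type (SD, n = 5 each) and was not called as deposited (limma adjusted p = 0.18). It was called lower once glomerular markers were scaled to be equal, as were 8329 of all 13156 genes tested. The receptor gene Ifnar2 was 1.67-fold higher, without a call under glomerular marker scaling. Ifnar1 was 1.37-fold and Usp14, a ubiquitin protease that also accepts ISG15, 1.52-fold higher as deposited, and both turned to small negative differences under that scaling. Usp2, a protease of broad range, was the one gene of this list called lower as deposited. It fell to 3.27 ± 2.47 FPKM in G799R against 17.1 ± 4.63 FPKM in wild type (limma adjusted p = 1.2e-04). The tubule markers fell in the same libraries, and their part in the fall of Usp2 was not tested.

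Other antiviral genes that lean to type I interferon were also higher in G799R. Of 36 tested, 35 were called higher by limma, beside 40.5% of all tested genes, with a median log2 difference of 2.04. Under glomerular marker scaling 32 were still called, beside 551 of all 13156 genes tested. Oas3, among the 35, averaged 0.258 FPKM in wild type and was tested only because of its level in G799R. Slfn8 was listed but too low to be tested, at a mean of 0.335 FPKM in G799R and 0.558 FPKM in wild type. Samd9l, a restriction factor, was the one tested gene not called, at 38.6 ± 22.6 FPKM in G799R and 27.2 ± 4.75 FPKM in wild type (SD, n = 5 each; limma adjusted p = 0.41). Among those with the smallest p were Ifitm3, which hinders virus entry (6.25-fold), Irf9 (3.81-fold), Xaf1 (10.9-fold) and Rtp4 (9.13-fold). Cmpk2, a nucleotide kinase gene that neighbours Rsad2, stood at 12.0, 17.1, 98.1, 54.4 and 5.97 FPKM in G799R, against 5.26, 3.86, 5.44, 5.85 and 7.83 FPKM in wild type (limma adjusted p = 0.017). Its G799R library 5 lay within the wild-type range, and it was no longer called under glomerular marker scaling. G799R libraries 3 and 4 were the highest pair for 35 of the 36 genes, against 7.48% of all tested genes.

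Genes that lean to interferon gamma, the type II interferon, were higher too. Of 23 tested, 20 were called higher by limma, beside 40.5% of all tested genes, with a median log2 difference of 1.26. Socs1, Cxcl9 and Fcgr1, among the 20, averaged 0.19, 0.17 and 0.43 FPKM in wild type and were tested only because of their levels in G799R. With only genes averaging at least 2 FPKM kept, 17 were called higher. Under glomerular marker scaling 13 of the list were called higher, where 551 of all 13156 genes tested were. Psmb8, Psmb9 and Psmb10, subunits of the immunoproteasome, rose 6.14-fold, 7.19-fold and 3.96-fold. The transcription factor gene Irf1 rose 3.29-fold and the GTPase gene Gbp2 6.80-fold. Library 3 was the highest G799R library for 13 of the 23 genes, the 5 just named among them, against 14.3% of all tested genes. G799R libraries 3 and 4 were the highest pair for 8 of the 23, against 7.48% of all tested genes. H2-Aa, a class II antigen presentation gene named after its values were seen, stood at 171, 142, 64.8, 87.1 and 94.8 FPKM in G799R and at 108, 32.9, 59.9, 18.9 and 37.4 FPKM in wild type, so that libraries 3 and 4 were its lowest in G799R. Ciita, H2-DMa and Ido1 were not called. The difference in order between these lists was not tested, and many type II genes also respond to type I interferon.

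**Figure D4:**
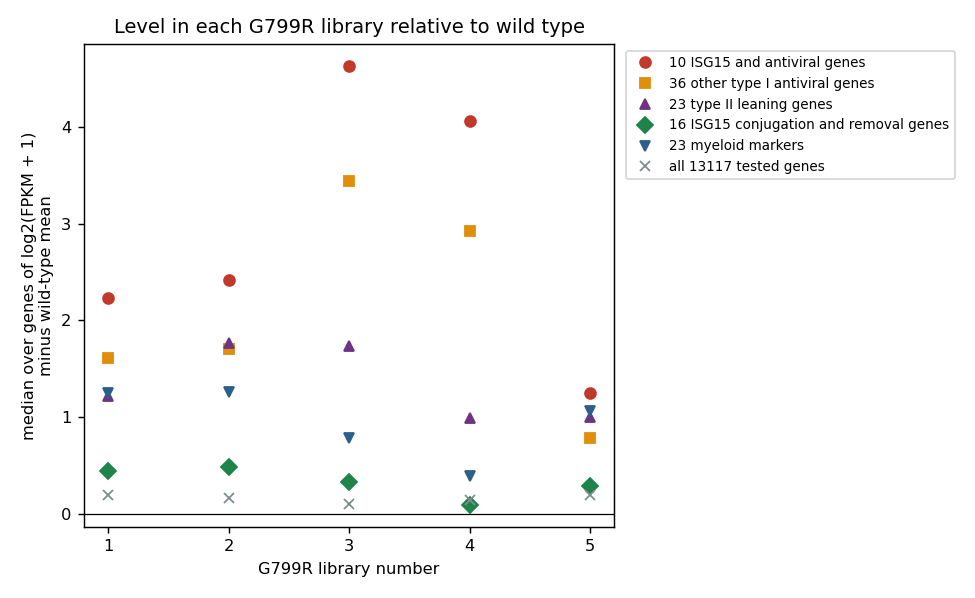
Median over the genes of each list of log2(FPKM + 1) minus the wild-type mean, in each of the 5 G799R libraries. The 10 ISG15 and antiviral genes run from 1.25 in library 5 to 4.63 in library 3, while the 23 myeloid markers are at 0.39 in library 4 and 1.26 in libraries 1 and 2.

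Myeloid markers did not share this order. Of 25 markers, 23 were tested and 14 were called higher, beside 40.5% of all tested genes. The summed level of the 25 markers was 193 to 345 FPKM in G799R and 75.9 to 179 FPKM in wild type. Their mean log2(FPKM + 1) was higher by 0.82 in G799R (exact two-sided permutation p = 0.016), and by 0.37 under glomerular marker scaling (exact p = 0.095). Within G799R, libraries 3 and 4 had the lowest summed levels of these markers, 245 and 193 FPKM, and the highest levels of the 10 genes. None of the 23 markers had libraries 3 and 4 as its highest pair, as only 7.48% of all tested genes did. Single genes differed in whether G799R and wild type overlapped. The macrophage gene Adgre1 was at 0.738 to 2.57 FPKM in G799R and 0.696 to 2.58 FPKM in wild type. Csf1r, another macrophage gene, was at 6.03 to 21.8 FPKM in G799R and 4.44 to 10.7 FPKM in wild type, with overlap. The leukocyte gene Ptprc was at 8.485 to 18.5 FPKM in G799R and 5.13 to 8.015 FPKM in wild type, without overlap. Siglech, a marker of plasmacytoid dendritic cells, which can make large amounts of type I interferon, was at 0.295 to 1.69 FPKM in G799R and 0.114 to 0.405 FPKM in wild type, and 8 such markers summed to 33.0 to 41.9 FPKM in G799R and 25.7 to 34.7 FPKM in wild type. Of these 8, 5 were under 1 FPKM in every library. Siglech was too low to be tested. The 2 that were tested were both called higher, beside 40.5% of all tested genes. The mean log2(FPKM + 1) of the 8 was higher by 0.087 in G799R (exact two-sided permutation p = 0.18). Of 16 lymphocyte markers 7 were tested, of which 1 was called higher and 1 lower, beside 40.5% and 19.3% of all tested genes. The 16 summed to 5.36 to 18.3 FPKM in G799R and 5.59 to 9.71 FPKM in wild type. The part of these cells in the levels of the 10 genes was not tested.

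Interferon genes themselves were hardly seen. Of 21 genes for type I, II and III interferons, 18 were listed at 0 in every library. Ifnb1 was at 0.091 FPKM in G799R library 4 alone, Ifng at 0.155 FPKM in G799R library 5 alone and Ifnz at 0.042 FPKM in wild-type library 1 alone. Depth is unknown, so rarer transcripts may not have been detectable.

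The genes next to the 10 genes on their chromosomes moved in both directions. The nearest tested gene on each side gave 18 neighbours outside the set, of which 10 were called higher and 2 lower by limma, beside 40.5% and 19.3% of all tested genes. Their median log2 difference was 0.56, beside 0.17 over all tested genes. Under glomerular marker scaling 3 were called higher and 7 lower, beside 551 and 8329 of all 13156 genes tested. Beside Isg15, Agrn, which encodes the basement membrane proteoglycan agrin, was at 119 ± 49.4 FPKM in G799R and 50.5 ± 2.82 FPKM in wild type (SD, n = 5 each; limma adjusted p = 0.0014), without a call under glomerular marker scaling, and Perm1 was not called as deposited. Beside Usp18, the transporter gene Slc6a13 fell to 1.85 ± 0.60 FPKM in G799R, against 16.1 ± 5.81 FPKM in wild type (limma adjusted p = 1.3e-05). Beside Mx1, the membrane protease gene Tmprss2 fell to 6.65 ± 2.27 FPKM in G799R, against 26.7 ± 4.80 FPKM in wild type (limma adjusted p = 5.1e-05). The tubule markers fell in the same libraries. Beside Ube2l6, Serping1, the gene of the C1 inhibitor, had the next largest rise of the 18 after Cmpk2, 3.66-fold.

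**Figure D5:**
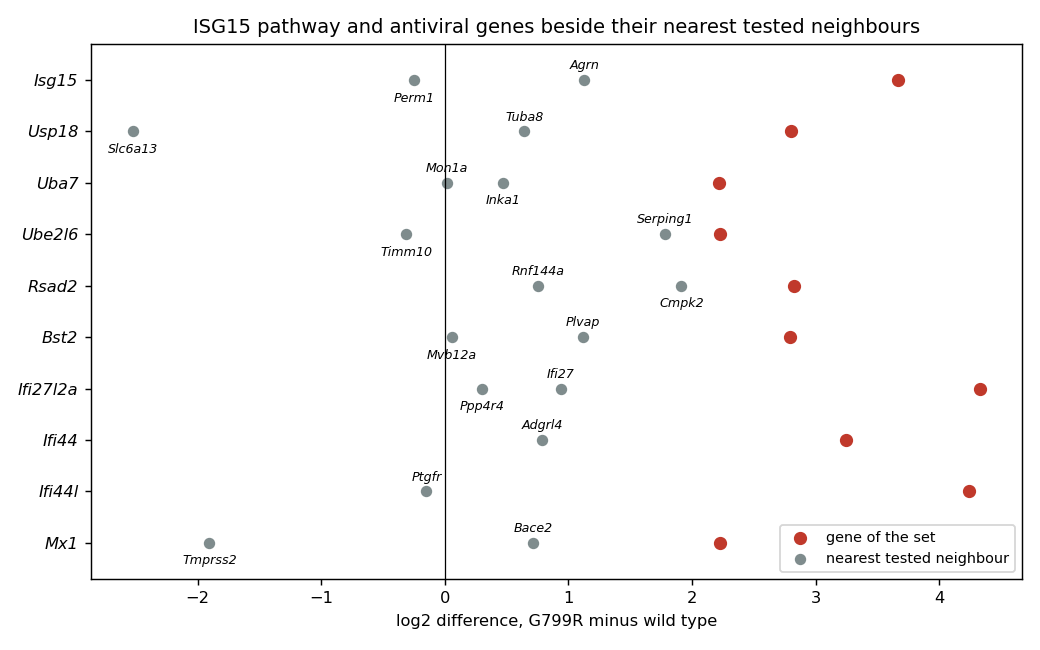
Log2 difference (G799R minus wild type) of each of the 10 genes (red) and of the nearest tested gene on each side (grey, named). Every red point lies to the right of its grey neighbours, among which Cmpk2 and Serping1 come closest at 1.91 and 1.78.

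The genes outside the set with the closest profile were found by the root mean square difference of centred log2(FPKM + 1) values over the 10 libraries, among 12283 genes. They were Oas1a (0.18), Ifi204 (0.23), Ifit3b (0.25), Oasl2 (0.25) and Zbp1 (0.26), where the median gene lay at 1.75. Oas1a, an enzyme gene that senses double-stranded RNA, stood at 19.6, 21.1, 75.1, 62.5 and 8.57 FPKM in G799R and 2.97, 1.14, 2.29, 2.41 and 5.57 FPKM in wild type. All of these genes share the same libraries and the same high and low libraries, so likeness is a description. Oas1a, Ifi204 and Ifit3b belong to families of similar genes, so their single values are uncertain.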

How the data were processed

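RNA-seq of mouse kidney glomeruli covered 5 Col4a3 p.G799R and 5 wild-type libraries, grouped and numbered by their titles. The authors deposited 1 table of FPKM values, per the file headers. The submitters' processing notes name RSEM, StringTie (1.3.1), HISAT2, Bowtie2 (2.2.8) and fastp (0.18.0) without roles; they name no genome build for the table. Symbols were found for 21963 of 22053 identifiers, and neighbours were taken from GENCODE M21 gene order. Total counts are not given, and absolute depth is unknown. Steps of low values placed relative depth between 0.86 and 1.19, with wild-type library 1 as 1, resting on 40 to 62 of 939 to 1112 low genes per library. FPKM sums ran from 320720 to 340875.

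FPKM was transformed to log2(FPKM + 1), which understates changes of low genes. Genes averaging 0.5 FPKM or more (13117), among them all 10 members, were tested with limma-trend (limma 3.58.1, R 4.3.3; two-sided, Benjamini-Hochberg adjustment, threshold 0.05). Mx1 and Ifi44l, whose wild-type medians were under 0.5 FPKM, passed this filter through their levels in G799R. So did Oas3, Socs1, Cxcl9 and Fcgr1 of the interferon lists, whose wild-type means were under 0.5 FPKM. On data simulated from these 13117 genes, 50% of genes changed 1.5-fold and 92% of genes changed 4-fold were recovered, with 2 false calls among 159. The simulation changed only 200 genes and drew noise independently for each gene, with the same SD in both groups. Its share of false calls therefore does not carry over to the calls reported here. Marker scores were tested with exact permutations in SciPy 1.17.1. Glomerular marker scaling sets the mean log2(FPKM + 1) of 58 podocyte, endothelial and mesangial markers equal in every library.

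The members and gene lists were chosen with earlier results of these data known. Named genes were the 10 members, Herc6, Trim25, Arih1, Cmpk2, up to 5 genes of each list with the smallest p, the nearest tested neighbours, the 5 closest profiles and the interferon genes. Mx2 and Cxcl11 were listed but not analysed here, and some genes that the rule would name are not reported here. The labels do not state whether libraries of the same number were paired, and the main fit used no pairing. Alternatives were a pseudocount of 0.1 or 0.5, quantile normalisation, scaling by median of ratios, keeping all genes or those of at least 2 FPKM, glomerular marker scaling, limma without trend, a replicate block and leaving out libraries.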

Additional observations from a re-analysis of the deposited data

Results flagged for a closer look

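Of 34 sets of 5 libraries examined (14 genes and 3 marker sums in each genotype), 4 had a library whose gap to its nearest neighbour took up an unusually large part of the range. Chance gives about 5% of independent sets. These sets share the same 10 libraries and are not independent, so their number is not weighed against that share. In all 4 the library was wild-type library 5, which was above the other wild-type libraries. Usp18 was at 6.35 FPKM there, against 2.81 to 3.31 FPKM in the other 4. Ifi44l was at 3.02 FPKM, against 0 to 0.078 FPKM in the others. Mx1 was at 1.29 FPKM, against 0.197 to 0.509 FPKM in the others. Trim25 was at 16.5 FPKM, against 11.9 to 12.7 FPKM in the others. Without wild-type library 5, the median log2 difference of the 10 genes was 2.97, against 2.81 with it.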

How the results depend on the processing

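The median log2 difference of the 10 genes stayed positive under every alternative run, from 1.88 without G799R libraries 3 and 4 to 3.27 without G799R library 5 and with a pseudocount of 0.1. Pseudocount mattered most for Ifi44l, whose difference was 4.24 with a pseudocount of 1 and 6.55 with 0.1. Scaling moved the counts over all genes. Under median-of-ratios scaling 3058 genes were called higher and 3351 lower (47.7% higher, with the overall median at 0.02). Glomerular marker scaling gave 551 higher and 8329 lower (6.20% higher, median -0.41), against 5308 higher and 2537 lower as deposited (67.7% higher). Glomerular marker scaling also gave 2 higher and 7 lower in the ISG15 conjugation and removal list, 13 higher in the type II leaning list, and 3 higher and 7 lower among the neighbours, of which 5 were lower under median-of-ratios scaling. The myeloid score difference there was 0.37 (exact p = 0.095), and the glomerular score difference is 0 by construction. Among the genes followed one by one, log2 differences that turned negative there were those of Arih1 (-0.54), Usp14 (-0.063), Ifnar1 (-0.21), Mon1a (-0.57), Inka1 (-0.13) and Mvb12a (-0.58). The cause was not tested. Among neighbours, the call of Inka1 was lost when G799R library 2, 3 or 5 or wild-type library 5 was left out. Leaving out 1 library at a time gave 4616 to 5587 higher and 2374 to 2582 lower calls. Same-numbered libraries did not deviate together (correlations -0.08 to 0.05, and 0 of 5 G799R libraries correlated best with its own number); the replicate block gave 4937 higher and 2451 lower. Depth limits what can be said of interferon genes and of Ifi44l and Mx1 in wild type.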
